A study of Pyrus pyrifolia with 12 samples.

Results

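Among 43732 annotated pear genes, 47 stood in opposite states in different varieties: each was on in the fruit skin of 1 variety and off in the other 3, or on in 3 and off in 1. The members were chosen from the read counts themselves. Counts were turned into CPM, a gene's reads as a share of all reads counted in that library, scaled to the same total in each. A variety was called on for a gene when all 3 of its libraries reached at least 10 CPM and off when all 3 stayed at or under 0.5 CPM. Because these values chose the genes, the contrast between the variety that differs and the other 3 is given below as a description and is not tested.

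The study sequenced fruit skin RNA of Pyrus pyrifolia, the sand pear of East Asia, in connection with russeting, the replacement of a smooth waxy skin by a rough corky one. Untreated mature fruit of SuCui NO.1 and CuiYu was taken at 105 days after full bloom, that of Akibae at 120 days and that of Nijisseiki at 135 days, all from orchards in 1 place, with 3 libraries per variety. Variety and harvest day cannot be told apart except between SuCui NO.1 and CuiYu. The labels call the libraries biological replicates without tying them to trees, so p-values measure the spread between these samples. Labels do not give the skin type of a variety, and Chili, a further variety named in the protocols, was not analysed here.

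Fruit skin is an epidermis that covers itself with a cuticle of cutin and wax. Pears descend from an ancestor whose genome doubled, so many of their genes have a sister copy on another chromosome. Gene families of pathogen defence, above all the resistance proteins with a nucleotide-binding domain and leucine-rich repeats and the receptor-like kinases, often sit in tandem arrays that differ between varieties of a crop.

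The libraries held 11981445 to 15136559 counts each, so that 1 read was worth 0.0661 to 0.0835 CPM, a variety was off at no more than 5 to 7 reads per library and on at no fewer than 120 to 152. A count of 0 over the 3 libraries of a variety still allows a level of up to 0.0709 to 0.0787 CPM (3 reads over the 3 libraries, counting error only). In bulk tissue, fewer cells of a type and less RNA per cell cannot be told apart. All 9 epidermis and cuticle markers were found, as 35 genes of which 5 had no read, with a summed level of 215 to 451 CPM in SuCui NO.1 libraries, 842 to 914 in CuiYu, 136 to 377 in Nijisseiki and 158 to 176 in Akibae. The 27 genes matching xylem and stone cell markers summed to 0.952 to 4.36 CPM in any library, those of phloem to 0.0765 to 41.6 CPM, highest in Akibae, and those of seed to 8.79 to 168 CPM, highest in CuiYu. Of the 47, 1 gene was in the epidermis list and 0 in the others. The library labelled Nijisseiki replicate 1 stood apart: 50 genes missed membership by a single library, and in 18 of them it was that library. Several of these were not near misses. It had 0 CPM of gene1603 and 0.0829 of gene16906, where the other Nijisseiki libraries were on. It had 58.8 CPM of gene31438 and 21.8 of gene25778, where they were off. Others lay nearer the limits, such as gene16648 at 8.46 CPM.

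SuCui NO.1 was the odd variety in most cases. Of the 9815 genes that were on or off in every variety and on in at least 1, the 47 were 0.479%. SuCui NO.1 differed from the other 3 in 27 genes, 11 on only there (0.112%) and 16 off only there (0.163%). CuiYu differed in 14 genes, 7 on only (0.0713%) and 7 off only (0.0713%). Nijisseiki differed in 4 genes, 3 on only (0.0306%) and 1 off only (0.0102%), and Akibae in 2 genes, both off only (0.0204%), with 0 on only. The set thus held 21 genes on in 1 variety (0.214%) and 26 off in 1 (0.265%). The rule fixes the contrast within each gene. How many genes met it in each variety depended on its limits and was not tested. By comparison 9744 genes were on in all 4 varieties, 13630 were off in all 4, and 24 were on in 2 and off in 2, of which Akibae and Nijisseiki shared 10 and SuCui NO.1 and CuiYu 6. Without Nijisseiki replicate 1, 65 genes met the rule in place of 47, with 6 off only in Nijisseiki, 5 on only there, 5 off only in Akibae and 20 off only in SuCui NO.1.

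**Figure D1:**
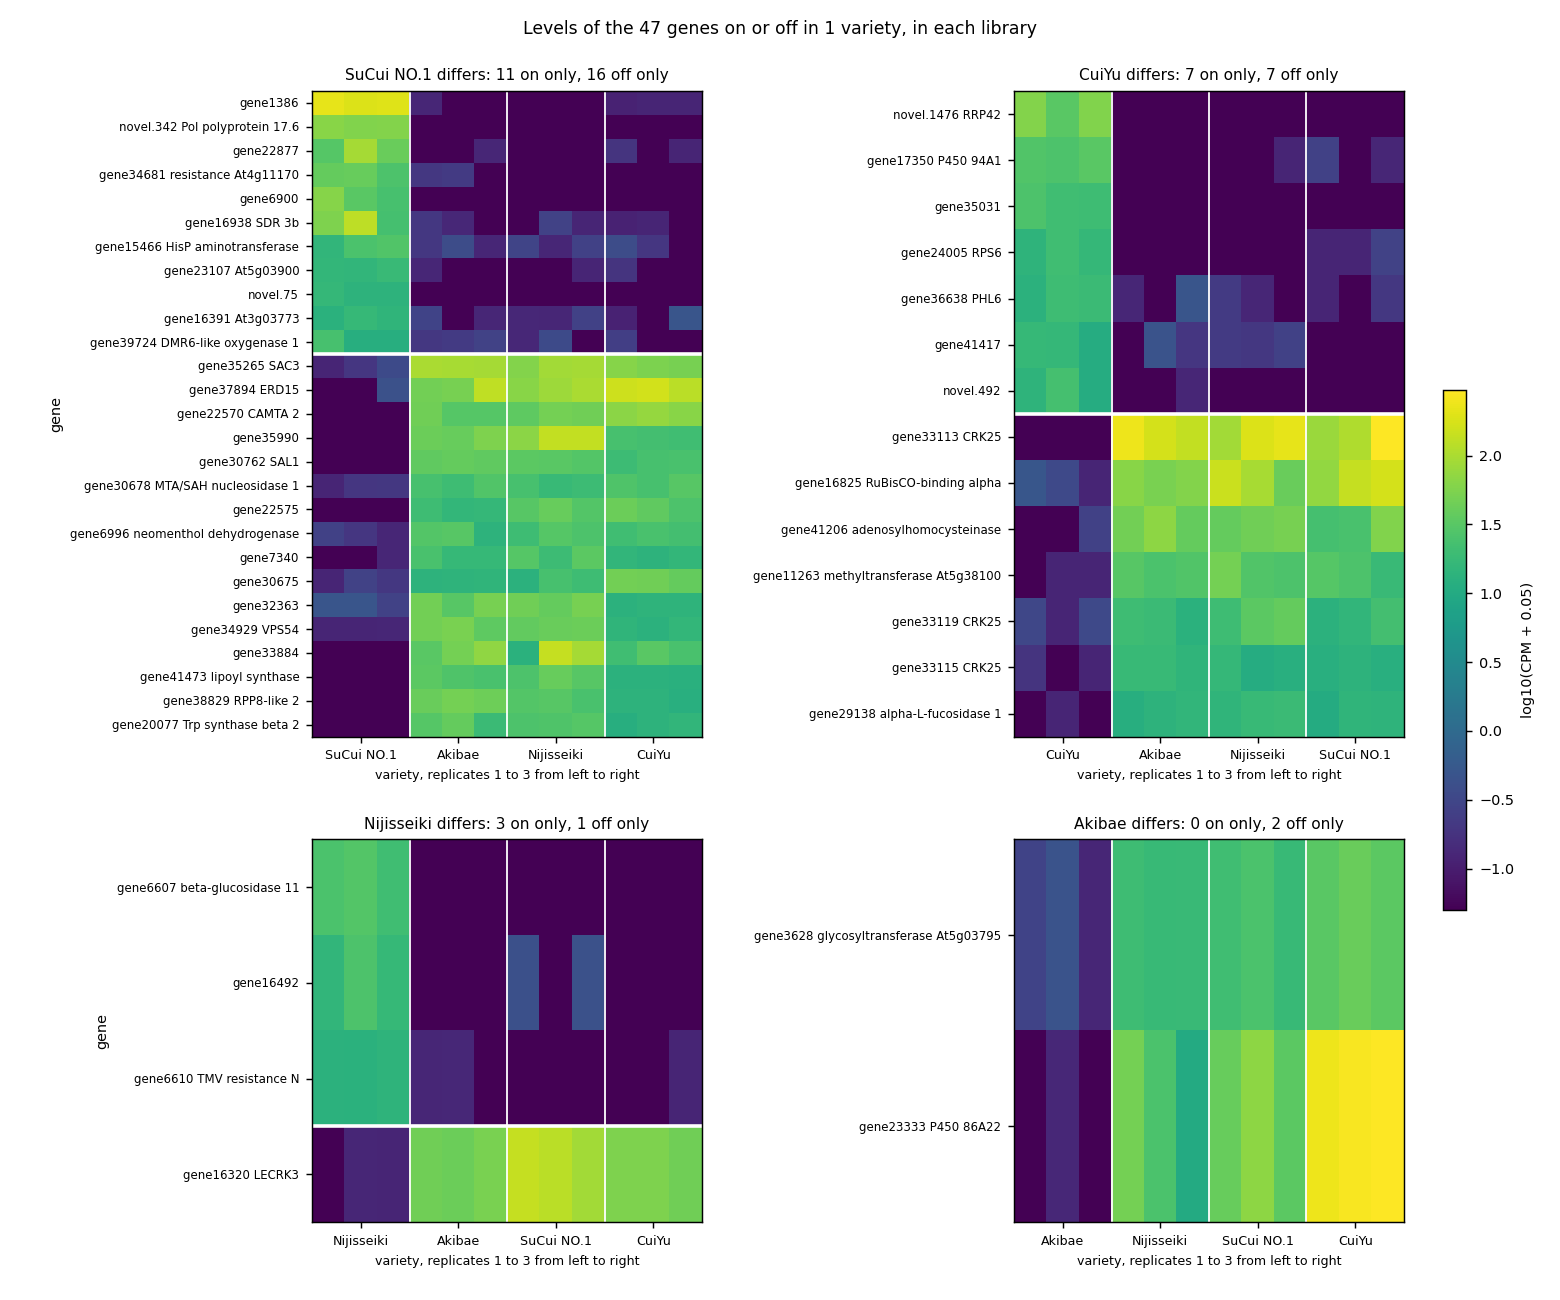
Level of each of the 47 genes in each of the 12 libraries, as log10 of CPM plus 0.05, with a panel for each variety that differs and that variety's 3 libraries at the left. The upper block of a panel holds genes on only in that variety and the lower block genes off only there; the SuCui NO.1 panel holds 11 and 16 genes, the Akibae panel 0 and 2.

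Off mostly meant no reads at all. Of the 267 libraries in which members were off, 167 held 0 reads of the gene, and 15 members had 0 reads in all of their off libraries. No Swiss-Prot name was given to 29.8% of the members, 16.04% of the genes on in all 4, 42.2% of those off in all 4 and 30.7% of all genes. Scaffolds outside the 17 numbered chromosomes held 21.3% of the members, 6.32% of the genes on in all 4, 20.1% of those off in all 4 and 14.5% of all genes. Gene models that the authors' table numbers apart from its main gene series were 8.51% of the members, 0.349% of the genes on in all 4, 3.07% of those off in all 4 and 3.55% of all genes. The threshold cut through a continuum at its edge: the gene just inside the on limit was gene23333 at 10.2 CPM in its lowest on library and the gene just outside was gene12272 at 9.98 CPM in SuCui NO.1 replicate 2, while gene16825 reached 0.462 CPM in an off library and gene26677, just outside, 0.501 CPM in Akibae replicate 2.

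The genes off in SuCui NO.1 included enzymes of primary metabolism and cofactor synthesis. SAL1 phosphatase (gene30762), which in Arabidopsis degrades a nucleotide signal of drought and strong light, had 0, 0 and 0 CPM in SuCui NO.1, against 36.2, 38.9 and 35.8 in Akibae, 32.9, 32.3 and 29.3 in Nijisseiki and 19.6, 23.9 and 24.4 in CuiYu. Tryptophan synthase beta chain 2 (gene20077), which joins indole to serine in the last step of tryptophan synthesis, had 0, 0 and 0 CPM in SuCui NO.1, against 30.3, 37.8 and 18.5 in Akibae, 26.2, 26.9 and 30 in Nijisseiki and 11.8, 14 and 15.4 in CuiYu. Chloroplastic lipoyl synthase (gene41473), which makes the lipoic acid cofactor of plastid pyruvate dehydrogenase, had 0, 0 and 0 CPM in SuCui NO.1, against 33.7, 27.2 and 24.7 in Akibae, 25.9, 39.3 and 31.7 in Nijisseiki and 13.1, 13.1 and 12.4 in CuiYu. In all 3 genes the CuiYu libraries lay under every Akibae and Nijisseiki library, and the tests of these differences are given below. The nucleosidase MTAN 1 (gene30678, 5'-methylthioadenosine/S-adenosylhomocysteine nucleosidase 1), which recycles by-products of S-adenosylmethionine use, had 0.0741, 0.149 and 0.152 CPM in SuCui NO.1, against 17.7 to 30.8 in the other 9 libraries.

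The other 6 named members off in SuCui NO.1 had various roles. EARLY RESPONSIVE TO DEHYDRATION 15 (gene37894), a small protein that in Arabidopsis dampens abscisic acid responses, had 0, 0 and 0.379 CPM in SuCui NO.1, against 46.8, 51.2 and 132 in Akibae, 64, 84.8 and 98.4 in Nijisseiki and 155, 165 and 124 in CuiYu. Calmodulin-binding transcription activator 2 (gene22570), a calcium-responsive transcription factor, had 0, 0 and 0 CPM in SuCui NO.1, against 46, 29.8 and 29.9 in Akibae, 34.6, 48.6 and 45.2 in Nijisseiki and 66.7, 76.9 and 64.6 in CuiYu. The phosphoinositide phosphatase SAC3 (gene35265) had 0.0741, 0.149 and 0.303 CPM in SuCui NO.1, against 99.9, 97.3 and 91.6 in Akibae, 60.2, 90.5 and 93 in Nijisseiki and 61, 53.5 and 51.2 in CuiYu. None of these ranges touched, which the rule fixes. VPS54 (gene34929), a subunit of a tethering complex for vesicles returning to the Golgi, had 1 read in each SuCui NO.1 library. The resistance gene RPP8-like protein 2 (gene38829) had 0 reads there and overlaps on the opposite strand with gene38828, which was on in all 4 varieties. (+)-neomenthol dehydrogenase (gene6996), a short-chain reductase known from peppermint terpene metabolism, had 0.0758 to 0.222 CPM in SuCui NO.1 and 13.9 to 31.4 CPM elsewhere. It overlaps over 5098 bases with gene6992 on the same strand, so its reads may be shared. The 6 members without a name (gene33884, gene32363, gene35990, gene7340, gene30675 and gene22575) were at 0 to 0.447 CPM in SuCui NO.1 and at 12.8 to 138 CPM in the other 9 libraries. Of these, gene35990 overlaps over 1417 bases with gene35987 on the same strand. Members described below that overlap with a gene on the same strand also include gene41206, gene15466, gene24005 and gene6610.

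For most of these genes another gene with the same Swiss-Prot entry was expressed, and often more strongly in SuCui NO.1. Copies were matched on that entry alone, so related genes under another entry were not counted. The rule did not use those copies, although reads that move between near-identical copies would tie their counts to those of the member, a part in the result that was not tested. Each copy was compared by edgeR's quasi-likelihood test between the variety that differs and the mean of the other 3, with Benjamini-Hochberg adjustment over all 26307 genes tested. Of 23 tested copies of the 10 named members off in SuCui NO.1, 11 (47.8%) were higher in SuCui NO.1 and 1 was lower, where 10.9% of all genes tested were higher and 7.42% lower. Of the 10 named members, 8 had at least 1 copy that was higher there, a count for which no share over all genes was computed. The copies, like the genes beside members below, were examined after the members' values had been seen.

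SAL1 had a single copy, gene27794 on chromosome 12. Its FPKM, the authors' value scaled to gene length and library total, was 34.4, 33.4 and 29.1 in SuCui NO.1, against 3.37, 3.07 and 3.93 in Akibae, 3.52, 3.72 and 2.13 in Nijisseiki and 14.2, 13.5 and 17.2 in CuiYu. It was higher in SuCui NO.1 than in the mean of the others by a log2 of 2.57 ± 0.16 (SE, edgeR adjusted p = 3.7e-06). Member and copy summed to 29.1 to 34.4 FPKM in SuCui NO.1, 27.5 to 28.0 in Akibae, 20.6 to 26.3 in Nijisseiki and 27.9 to 33.5 in CuiYu, so that the sum spread far less over varieties than either gene. The copy of tryptophan synthase, gene22249 on chromosome 17, had 22.3, 22 and 48.3 FPKM in SuCui NO.1, against 4.45 to 6.38 in Akibae, 5.01 to 6.53 in Nijisseiki and 9.55 to 10.4 in CuiYu. Its log2 difference was 2.18 ± 0.22 (SE, edgeR adjusted p = 9.02e-05). One of 2 copies of VPS54, gene30713 on chromosome 4, had 16.4, 11.7 and 9.59 FPKM in SuCui NO.1, against 0.834 to 1.97 in Akibae, 0.584 to 1.07 in Nijisseiki and 5.56 to 7.9 in CuiYu (log2 2.67 ± 0.24 SE, edgeR adjusted p = 4.73e-05). In these 3 families the copy was thus low in Akibae and Nijisseiki, where the member was high, and the copy in CuiYu lay between those and SuCui NO.1.

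The summed level of member and copy did not stay level in every family. For lipoyl synthase the copy gene39707 was higher in SuCui NO.1, at 15.2, 16.1 and 17.2 FPKM, against 7.04 to 9.47 in Akibae, 9.44 to 11.3 in Nijisseiki and 5.2 to 6.59 in CuiYu (log2 1.04 ± 0.13 SE, edgeR adjusted p = 0.000476). The sum of both genes was 15.2 to 17.2 FPKM in SuCui NO.1, against 24.9 to 34.0 in Akibae and 30.9 to 36.7 in Nijisseiki. In CuiYu, where the member was on, the sum was 15.2 to 16.3 FPKM, level with SuCui NO.1. Of the 3 copies of EARLY RESPONSIVE TO DEHYDRATION 15, gene38856 was lower in SuCui NO.1, at 271 ± 66.2 CPM against 462 ± 49.3 in Akibae, 327 ± 46.8 in Nijisseiki and 579 ± 56.6 in CuiYu (SD, n = 3 each; log2 -0.69 ± 0.16 SE, edgeR adjusted p = 0.0157). Another, gene40495, had 131 ± 40.1 FPKM in SuCui NO.1, against 64.5 ± 37.0 in Akibae, 65.4 ± 13.6 in Nijisseiki and 125 ± 18.1 in CuiYu, and was not called (SD, n = 3 each; log2 0.71 ± 0.28 SE, edgeR adjusted p = 0.109). The third had too few reads to be tested. Calmodulin-binding transcription activator 2 had 2 copies on in all 4 varieties and neither was called.

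**Figure D2:**
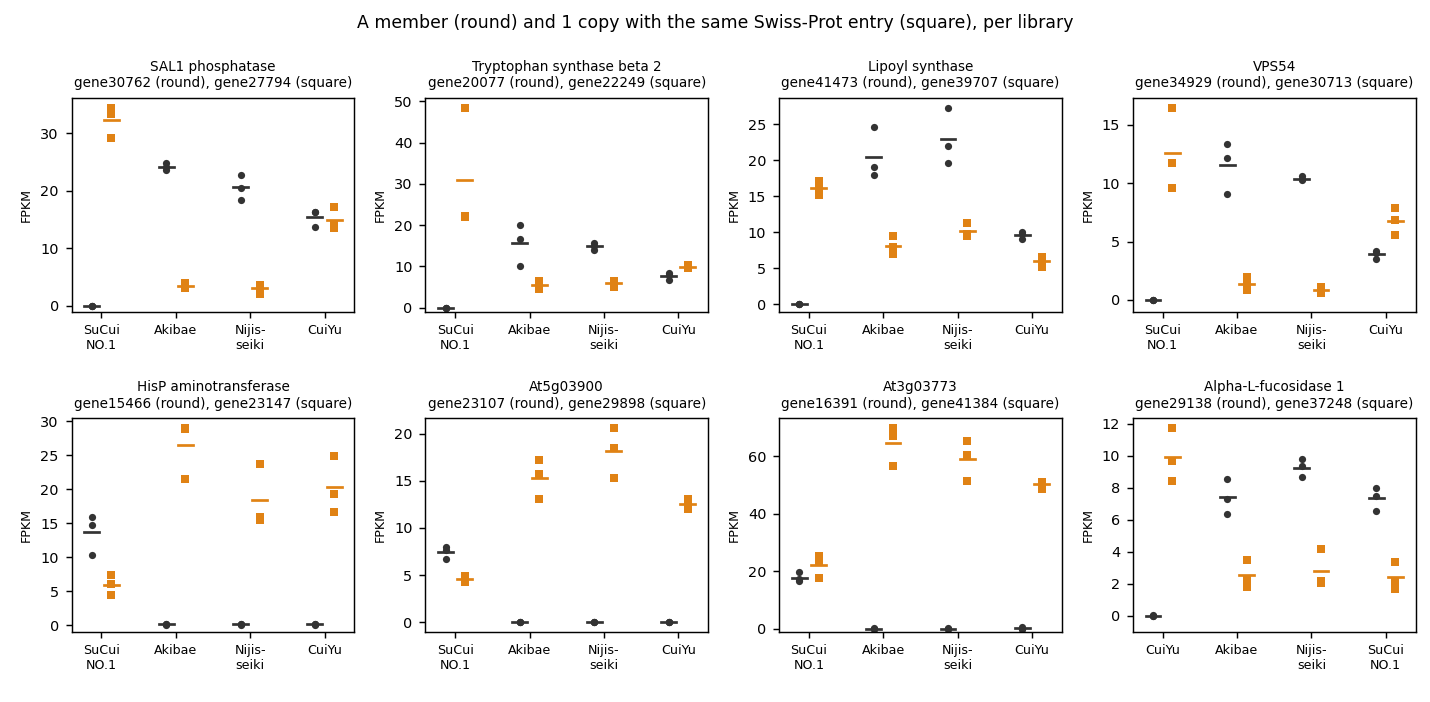
FPKM of a member (round) and of a copy with the same Swiss-Prot entry (square) in each library, with bars at the means of 3 and the variety that differs at the left of each panel. In the SAL1 panel the copy sits at 29.1 to 34.4 in SuCui NO.1, where the member is at 0. In the lower row the first 3 members were on only in SuCui NO.1 and the copies shown are lower there. Other copies of a family are not drawn.

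The 11 genes on only in SuCui NO.1 included a gene with a nucleic acid binding domain, a retrotransposon model and defence genes. The unnamed gene1386, with a replication protein A nucleic acid binding domain, had 217, 187 and 195 CPM in SuCui NO.1, against 0 to 0.0777 CPM in the other 9 libraries. A gene model on chromosome 1 at 16428890 to 16444815, similar to a retrotransposon polyprotein, had 63.1, 57.3 and 59.3 CPM in SuCui NO.1 and 0 reads in the other 9 libraries. Short-chain dehydrogenase reductase 3b (gene16938) had 55.4, 125 and 23.3 CPM in SuCui NO.1, against 0 to 0.23 CPM elsewhere. Its SuCui NO.1 libraries thus spread widely among themselves, as did those of the unnamed gene22877 (30.2, 92.3 and 41.1 CPM), while those of the retrotransposon model lay close together.

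Defence was represented in SuCui NO.1 by DMR6-LIKE OXYGENASE 1 (gene39724), which in Arabidopsis hydroxylates the defence hormone salicylic acid, and by the resistance protein At4g11170 (gene34681). The oxygenase had 24.1, 11.8 and 11.7 CPM in SuCui NO.1, against 0 to 0.306 CPM elsewhere, and the resistance protein 38.4, 40.1 and 26.2 CPM, against 0 to 0.167 CPM elsewhere. The gene34681 model spans 5 other genes, of which gene34686 was on in all 4 varieties, so its reads may be shared with them. Genes of metabolism and of unknown role completed the group. Histidinol-phosphate aminotransferase (gene15466), of histidine synthesis, had 15.4, 25.1 and 28.7 CPM in SuCui NO.1, against 0 to 0.334 CPM elsewhere. The amidohydrolase gene6900 had 61.8, 31.9 and 24 CPM in SuCui NO.1 and 0 reads in the other 9 libraries. The uncharacterised genes At3g03773 (gene16391) and At5g03900 (gene23107) had 13 to 16.8 and 15.1 to 18.1 CPM, and an unnamed model on a scaffold 13.9 to 16.3 CPM.

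Here too copies moved against the member in some families. Of 3 copies of histidinol-phosphate aminotransferase, gene23147, also on chromosome 12, had 7.33, 4.37 and 6.07 FPKM in SuCui NO.1, against 21.5 to 28.9 in Akibae, 15.5 to 23.7 in Nijisseiki and 16.6 to 24.9 in CuiYu (log2 -1.85 ± 0.23 SE, edgeR adjusted p = 0.000359). Copies of At5g03900 (gene29898, log2 -1.71 ± 0.15 SE, edgeR adjusted p = 3.51e-05) and of At3g03773 (gene41384, log2 -1.37 ± 0.15 SE, edgeR adjusted p = 0.000156) were lower in SuCui NO.1 as well. The other copies of the aminotransferase had their highest means in SuCui NO.1. These were 9.55 FPKM for gene16514, against means of 3.54 to 6.42 in the other varieties, and 5.03 for gene5494, against 1.43 to 3.17. Over the whole group, however, 5 of 30 tested copies were lower in SuCui NO.1 and 8 were higher, where 7.42% and 10.9% of all genes were. Over all genes on in 1 variety, 15 of 236 tested copies were lower in that variety and 31 higher. Most of these tests, 189, were in Nijisseiki, mostly of genes annotated as TMV resistance protein N, with 7 lower and 19 higher, where 2.69% and 5.31% of all genes tested were. CuiYu had 3 of 17 lower and 4 higher, where 8.33% and 11.3% were. The count of 15 was 29 by DESeq2, 23 without Nijisseiki replicate 1 and 9 without CuiYu replicate 3.

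A run of receptor kinases was off in CuiYu. A group of 3 genes for cysteine-rich receptor-like protein kinase 25 (gene33113, gene33115 and gene33119), cell-surface kinases of plant immunity and stress, lay within 48.7 kb of a scaffold outside the numbered chromosomes. The first had 0, 0 and 0 CPM in CuiYu, against 79.7, 108 and 296 in SuCui NO.1, 90.5, 189 and 221 in Nijisseiki and 239, 172 and 137 in Akibae. The second had 0.132, 0 and 0.0732 CPM in CuiYu, against 10.9 to 17.7 in the other 9 libraries, and the third 0.264, 0.0741 and 0.293 CPM, against 13 to 38.4. The neighbouring genes of the same family were low as well: gene33114, which lies inside gene33113, had 0.947 ± 0.625 CPM in CuiYu, against 62.6 ± 8.03 in Akibae, 68.9 ± 21.3 in Nijisseiki and 73.5 ± 21.1 in SuCui NO.1 (SD, n = 3 each; edgeR adjusted p = 8.33e-06). The next, gene33112, had 1.16 ± 0.179 CPM in CuiYu, against 17 ± 3.37 in Akibae, 20.2 ± 1.06 in Nijisseiki and 30.3 ± 23.4 in SuCui NO.1 (SD, n = 3 each; edgeR adjusted p = 0.000114). Not every gene of the array was low, since gene33117, between the members, had 3.91 CPM in CuiYu and 1.51 to 5.03 CPM in the other varieties. A family member on chromosome 10, gene8988, was higher in CuiYu at 45.3 ± 11.7 CPM, against 19.1 ± 0.748 in Akibae, 35.1 ± 19.0 in Nijisseiki and 18.1 ± 7.06 in SuCui NO.1 (SD, n = 3 each; edgeR adjusted p = 0.033).

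The other named genes off in CuiYu were adenosylhomocysteinase, a methyltransferase, a chaperonin subunit and a fucosidase. Adenosylhomocysteinase (gene41206), which clears the by-product of methylation reactions, had 0, 0 and 0.22 CPM in CuiYu, against 23.3, 24.8 and 57.8 in SuCui NO.1, 38.9, 44.9 and 50.6 in Nijisseiki and 46.4, 67.7 and 37.9 in Akibae, and no other gene carried its Swiss-Prot entry. Related genes under another entry were not counted. The methyltransferase At5g38100 (gene11263) had 0 to 0.0741 CPM in CuiYu, against 18.3 to 48.9 elsewhere. The alpha subunit of the RuBisCO large subunit-binding protein (gene16825), a chloroplast chaperonin, had 0.462, 0.297 and 0.0732 CPM in CuiYu, against 73.7, 141 and 171 in SuCui NO.1, 150, 97.2 and 41.7 in Nijisseiki and 64.5, 51.7 and 59.2 in Akibae. Of its 3 copies, gene24200 was higher in CuiYu (log2 1.07 ± 0.29 SE, edgeR adjusted p = 0.0256). Alpha-L-fucosidase 1 (gene29138), which removes fucose from sugar chains, had 0, 0.0741 and 0 CPM in CuiYu, against 10.5 to 18.7 elsewhere. Of its 3 copies, gene37248 had 8.41, 11.7 and 9.66 FPKM in CuiYu, against 1.81 to 3.5 in Akibae, 2.03 to 4.17 in Nijisseiki and 1.68 to 3.37 in SuCui NO.1 (log2 1.95 ± 0.28 SE, edgeR adjusted p = 0.000862). Over all members off in CuiYu the direction was mixed. Of 21 tested copies, 5 were higher in CuiYu and 4 lower, where 11.3% and 8.33% of all genes tested were.

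Genes on only in CuiYu included RNA decay, lipid, regulatory and resistance genes. An RRP42 gene model at the start of the chromosome 9 stretch described below, similar to a core subunit of the RNA-degrading exosome, had 59.7, 32.8 and 57.2 CPM in CuiYu and 0 reads in the other 9 libraries. Cytochrome P450 94A1 (gene17350), a fatty acid hydroxylase known from vetch, had 27.9, 26.4 and 32.3 CPM in CuiYu, against 0 to 0.222 elsewhere. Of its tested copies, gene25545 and gene3891 were lower in CuiYu and gene17351 was higher. The level of gene3891 was 46.0 ± 1.79 CPM in CuiYu, against 123 ± 40.2 in Akibae, 106 ± 23.3 in Nijisseiki and 118 ± 56.0 in SuCui NO.1 (SD, n = 3 each; edgeR adjusted p = 0.0214). PHL6 (gene36638), a MYB transcription factor related to the regulators of phosphate starvation, had 13.4, 20.3 and 19 CPM in CuiYu, against 0 to 0.453 elsewhere. The resistance gene RPS6 (gene24005), whose Arabidopsis namesake recognises a bacterial effector, had 14.4, 21.1 and 16.6 CPM in CuiYu, against 0 to 0.227 elsewhere. The unnamed gene35031, gene41417 and a gene model on chromosome 11 had 10.8 to 26.2 CPM in CuiYu.

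Nijisseiki and Akibae had few such genes, though more without Nijisseiki replicate 1, as given above. Beta-glucosidase 11 (gene6607), which frees sugars from glycosides, had 25.4, 29.5 and 20.9 CPM in Nijisseiki and 0 reads in the other 9 libraries. TMV resistance protein N (gene6610), a resistance protein first known from tobacco, had 13.4, 13.1 and 14.4 CPM in Nijisseiki, against 0 to 0.0835 elsewhere, and the unnamed gene16492 15.3, 26.3 and 17 CPM, against 0 to 0.379. The lectin receptor kinase LECRK3 (gene16320) was off only in Nijisseiki, with 0, 0.0765 and 0.0738 CPM, against 45.9, 42.8 and 51.4 in Akibae, 141, 124 and 91 in SuCui NO.1 and 56.4, 55.3 and 45.6 in CuiYu. Off only in Akibae was cytochrome P450 86A22 (gene23333), of an enzyme family that hydroxylates fatty acids for cutin and is described in petunia. It had 0, 0.0835 and 0 CPM in Akibae, against 48.1, 25.4 and 10.2 in Nijisseiki, 39.5, 67.5 and 34 in SuCui NO.1 and 244, 275 and 303 in CuiYu. This was the epidermis marker among the members. The glycosyltransferase At5g03795 (gene3628) was also off only in Akibae, with 0.233, 0.417 and 0.0754 CPM, against 20.2, 17.5 and 17.9 in Nijisseiki, 20.8, 25.4 and 17.5 in SuCui NO.1 and 32.5, 40.4 and 33.7 in CuiYu. Of 7 tested copies of the glycosyltransferase, 1 was higher and 1 lower in Akibae than in the mean of the other 3, where 5.6% and 4.27% of all genes tested were. P450 86A22 had no other gene with its Swiss-Prot entry, and related genes under another entry were not counted as copies.

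By function, 23 of the 33 named members fell in at least 1 of 19 lists and 10 in none. Disease resistance genes were 4 of the 47 (8.51%), against 0.995% of the genes on in all 4 varieties: RPS6 on in CuiYu, At4g11170 on in SuCui NO.1, TMV resistance protein N on in Nijisseiki and RPP8-like protein 2 off in SuCui NO.1. Kinases were also 4 of 47 (8.51%, against 5.74%), all off in 1 variety, and 3 of these are neighbours in 1 array. Genes named as chloroplastic or for photosynthesis were 5 (10.6%, against 7.72%) and included VPS54, whose Swiss-Prot name carries the word although the protein is known for vesicle tethering. Redox enzymes were 3 (6.38%, against 3.66%), cytochromes P450 2 (4.26%, against 0.246%) and transcription factors 2 (4.26%, against 2.60%). Among all 43732 genes, in any state, these lists held 649 disease resistance genes, 2385 kinases and 2508 genes named as chloroplastic or for photosynthesis. They also held 1575 redox enzymes, 274 cytochromes P450 and 1498 transcription factors. Retrotransposon, glycosyltransferase, cuticle and wall enzyme lists held 1 member each. The other 9 lists, among them phenylpropanoid and flavonoid enzymes, terpene enzymes, transporters and ribosomal proteins, held 0. The lists match words in Swiss-Prot names, so that the chaperonin gene16825 counted as chloroplastic and not as a chaperone, and alpha-L-fucosidase 1 in no list. These counts are descriptions of a set of 47 and call nothing particular to it.

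Where a gene is on in 3 varieties, the rule does not set its order among them, and that order was tested. The rule does bound the levels of both varieties of a pair from below, at 10 CPM in each library. Genes tested at large carry no such bound, so their shares below are not matched for level. The effect of the bound on calls and fold sizes was not tested. The 26 genes off in 1 variety gave 78 tests between pairs of varieties in which both were on, of which 25 passed at an edgeR adjusted p of 0.05, 15 of them under every alternative run. The clearest pattern was in the 16 genes off in SuCui NO.1. Of these, 8 were lower and 3 higher in CuiYu than in Akibae, where 6.99% and 8.09% of all genes tested were, and 6 were lower and 2 higher in CuiYu than in Nijisseiki, where 8.03% and 7.37% were. Akibae differed from Nijisseiki in 1 of the 16, which was lower (1.57% of all genes tested were lower and 0.962% higher). The 11 calls between CuiYu and Akibae were 5 without Akibae replicate 2, 7 without Akibae replicate 1, 6 without CuiYu replicate 1 or replicate 2, and 7 without CuiYu replicate 3. The comparisons of CuiYu with Akibae and with Nijisseiki share the CuiYu libraries.

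The RPP8-like gene gene38829 was among the genes lower in CuiYu under every alternative, with 13.6, 13.6 and 11.9 CPM in CuiYu, against 41.2, 48.9 and 43.4 in Akibae and 29.5, 31.1 and 24.4 in Nijisseiki. It was lower in CuiYu than in Akibae by a log2 of -1.70 ± 0.18 (SE, edgeR adjusted p = 0.000436) and lower than in Nijisseiki by -1.05 ± 0.18 (SE, edgeR adjusted p = 0.00537). VPS54 (gene34929) had 14.7, 13.1 and 15.7 CPM in CuiYu, against 46.4, 52.9 and 34.8 in Akibae and 37.4, 41.4 and 42.5 in Nijisseiki (log2 -1.55 ± 0.17 and -1.41 ± 0.17 SE, edgeR adjusted p = 0.000189 and 0.000396). Lipoyl synthase (gene41473) was lower in CuiYu than in Akibae (log2 -1.08 ± 0.20 SE, edgeR adjusted p = 0.00744) and than in Nijisseiki (log2 -1.25 ± 0.20 SE, edgeR adjusted p = 0.00403). Among the unnamed members, gene32363 was lower in CuiYu by -1.57 ± 0.25 against Akibae and -1.62 ± 0.25 against Nijisseiki, and gene35990 by -2.24 ± 0.27 against Nijisseiki (SE, edgeR adjusted p = 0.0019, 0.0018 and 0.00102). The unnamed gene30675 went the other way, with 46.4, 45.1 and 37.8 CPM in CuiYu, against 13.7, 14.1 and 14.6 in Akibae and 13.5, 23.9 and 20.2 in Nijisseiki (log2 1.67 ± 0.22 and 1.25 ± 0.22 SE, edgeR adjusted p = 0.000639 and 0.00376). In each of these tests the libraries of the 2 varieties did not overlap.

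**Figure D3:**
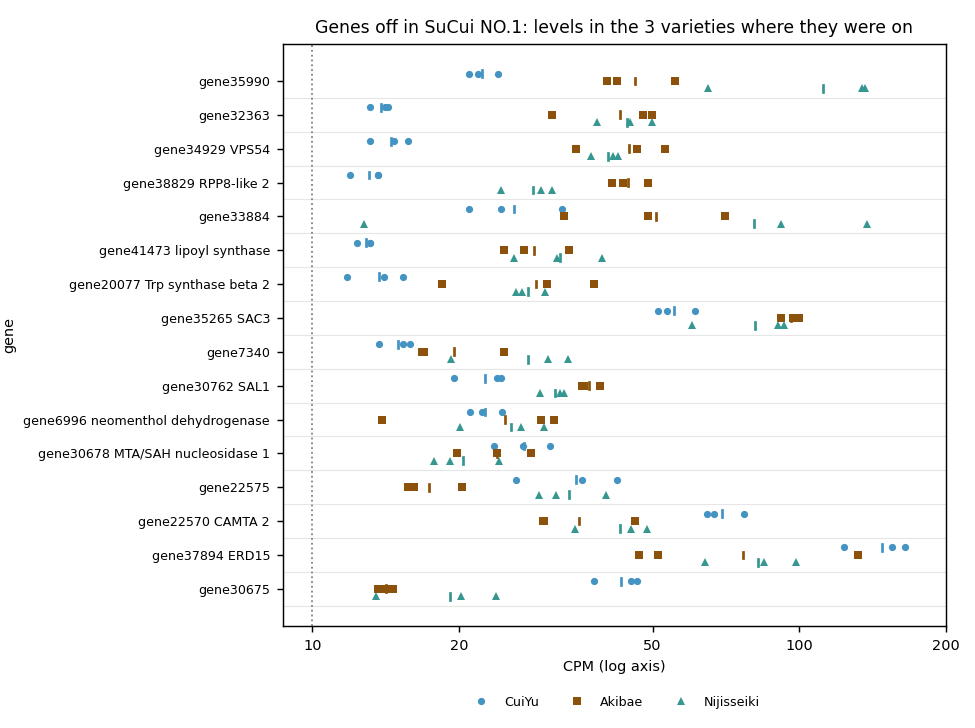
CPM on a log axis of the 16 genes off in SuCui NO.1 in each library of CuiYu (circles), Akibae (squares) and Nijisseiki (triangles), with bars at the means of 3 and the on limit of 10 CPM dotted. Genes are sorted by the level in CuiYu against the other 2, from gene35990 at the top to gene30675 at the bottom; the CuiYu means lie lowest in the upper rows.

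The other 10 calls were lost under at least 1 alternative. SAL1 (gene30762) was lower in CuiYu than in Akibae by -0.65 ± 0.16 and SAC3 (gene35265) by -0.74 ± 0.20 (SE, edgeR adjusted p = 0.0279 and 0.0301), and the unnamed gene35990 by -0.98 ± 0.26 (SE, edgeR adjusted p = 0.0367). Each of these 3 calls was lost with a replicate block and without any 1 of the Akibae or CuiYu libraries (highest edgeR adjusted p = 0.119, 0.111 and 0.117). Against Nijisseiki, SAL1 and SAC3 were not called (log2 -0.42 ± 0.16 and -0.48 ± 0.20 SE, edgeR adjusted p = 0.115 and 0.13). Tryptophan synthase (gene20077) was lower in CuiYu than in Akibae by -1.01 ± 0.25 and than in Nijisseiki by -0.95 ± 0.25 (SE, edgeR adjusted p = 0.0288 and 0.0361). Both were lost with a replicate block, without Akibae replicate 1 and without any CuiYu library, the first also without Akibae replicate 2 and the second without any Nijisseiki library (highest edgeR adjusted p = 0.111 and 0.125). Calmodulin-binding transcription activator 2 was higher in CuiYu than in Akibae (log2 1.04 ± 0.21 SE, edgeR adjusted p = 0.0122) and than in Nijisseiki (0.77 ± 0.21 SE, edgeR adjusted p = 0.0409). The first was lost without Akibae replicate 2 (edgeR adjusted p = 0.0538), and the second without any 1 of the Nijisseiki or CuiYu libraries, with a replicate block and with no filter on low counts (highest edgeR adjusted p = 0.14). The unnamed gene22575, higher in CuiYu than in Akibae by 1.07 ± 0.24 (SE, edgeR adjusted p = 0.018), was lost without Akibae replicate 2 or 3 or CuiYu replicate 1 or 2 (highest 0.0751). The only call between Akibae and Nijisseiki, gene35990, was lower in Akibae by -1.26 ± 0.26 (SE, edgeR adjusted p = 0.0441) and was lost without any of the Akibae or CuiYu libraries or Nijisseiki replicate 2 or 3, with a replicate block and with only the 2 varieties fitted (highest 0.176).

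P450 86A22 (gene23333) also differed among the varieties that expressed it. It was higher in CuiYu than in Nijisseiki by a log2 of 3.32 ± 0.53 (SE, edgeR adjusted p = 0.0022) and lower in SuCui NO.1 than in CuiYu by -2.54 ± 0.51 (SE, edgeR adjusted p = 0.0073), at the same harvest day in the second case. The summed level of the epidermis markers, which include this gene, was likewise highest in CuiYu, and its part in the difference was not tested. LECRK3 was higher in SuCui NO.1 than in Akibae by 1.42 ± 0.25 and than in CuiYu by 1.19 ± 0.25 (SE, edgeR adjusted p = 0.0032 and 0.0083). Among all genes tested 8.66% were higher and 7.62% lower in SuCui NO.1 than in Akibae, and 8.86% were higher and 8.58% lower than in CuiYu. Glycosyltransferase At5g03795 was higher in CuiYu than in Nijisseiki by 1.0 ± 0.28 (SE, edgeR adjusted p = 0.0352), which was lost without Akibae replicate 1, Nijisseiki replicate 2 or 3, or any CuiYu library (highest 0.14). For the 7 genes off in CuiYu, edgeR called 0 of 21 tests among the other 3 varieties, with 3 at an unadjusted p under 0.05 and 1 called by DESeq2. A missed call does not show equal levels: that of the chaperonin gene16825, for example, was 1.16 on the log2 scale in SuCui NO.1 over Akibae, with a standard error of 0.45. SuCui NO.1 against Nijisseiki gave 0 of 9 calls by edgeR, with 1 at an unadjusted p under 0.05 and 1 by DESeq2, where 5.76% of all genes tested were higher and 6.68% lower.

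The members were scattered over 13 numbered chromosomes and several scaffolds, with few true clusters. Members of the same kind and variety lay within 200 kb of each other in 3 places on the numbered chromosomes, which held 6 members, and in 2 places on scaffolds. Positions are those of the authors' table, and no source used here names their genome build. SuCui NO.1 was the variety that differed in 27 of all 47 members. Chromosome 12, with 1862 of the 43732 genes, held 8 members, all of them cases where SuCui NO.1 differed: 3 on only, between 633997 and 2382926, and 5 off only, between 3220351 and 10198661. Among these gene22570 (the calmodulin-binding activator) and gene22575 lay within 131 kb, between 3220351 and 3351159, with 8 genes between them of which 0 were on in all 4 varieties and 2 were off in all 4. The 2 genes of Nijisseiki, TMV resistance protein N and beta-glucosidase 11, lay within 69.8 kb on chromosome 2, between 20125650 and 20195487. No member on only in a variety shared its Swiss-Prot entry with a member off only in that variety.

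Genes beside the members often moved with them, although the rule did not use them. The 5 genes on each side of a member, leaving out other members, were compared between the variety that differs and the mean of the other 3. Beside genes on only in 1 variety, 56 of 118 tested neighbours (47.5%) were higher in that variety and 6 were lower. By variety these were 28 of 70 (40.0%) in SuCui NO.1, where 10.9% of all genes tested were higher, 22 of 38 (57.9%) in CuiYu, where 11.3% were, and 6 of 10 in Nijisseiki, where 5.31% were. Beside genes off only in 1 variety, 41 of 123 (33.3%) were lower there and 5 higher. These were 27 of 75 (36.0%) in SuCui NO.1, against 7.42% of all genes, 10 of 27 (37.0%) in CuiYu, against 8.33%, 3 of 6 in Nijisseiki, against 2.69%, and 1 of 15 in Akibae, against 4.27%. At least 1 such neighbour stood beside 38 of the 47 members, 20 of the 21 on and 18 of the 26 off. The share of all genes with at least 1 such neighbour was not computed, so these counts have no comparison. With genes of a mean under 1 CPM left out, 46 of 101 and 37 of 110 were called, and without genes that overlap a member 53 and 40.

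The share was highest next to the member. Beside genes on only in 1 variety it was 65.5% among nearest neighbours (19 of 29), 59.1%, 47.4% and 39.1% at 2, 3 and 4 genes away, and 24.0% at 5. Beside genes off only it was 50% among nearest neighbours (17 of 34), then 32.3%, 26.1%, 16.7% and 29.4% at 2 to 5 genes away, the last from 5 of 17 genes. Neighbours of 1 member share a location and are not independent of each other.

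**Figure D4:**
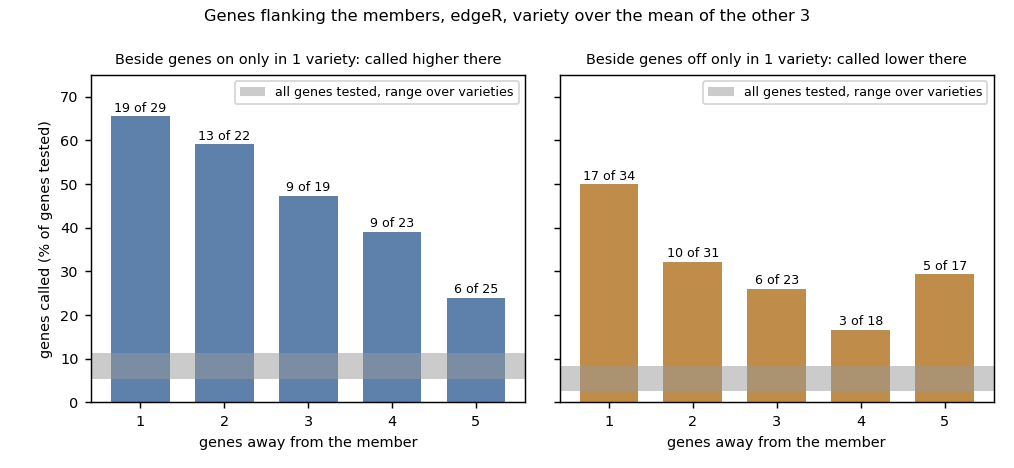
Share of tested genes, in percent, that edgeR called higher beside genes on only in 1 variety (left) or lower beside genes off only (right), by the number of genes from the member, with the counts over the bars. The grey band is the range over varieties of the share among all genes tested; the bars lie above it at each distance and are tallest next to the member.

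Some of these neighbours belong to the member's own family. Beside DMR6-LIKE OXYGENASE 1, its tandem copy gene39725 had 30 ± 11 CPM in SuCui NO.1, against 0.105 ± 0.044 in Akibae, 0.218 ± 0.316 in Nijisseiki and 0.118 ± 0.0395 in CuiYu (SD, n = 3 each; edgeR adjusted p = 5.9e-06). Beside the Nijisseiki genes on chromosome 2, 2 more genes annotated as TMV resistance protein N were expressed there: gene6604 had 6.07 ± 2.38 CPM in Nijisseiki and 0 reads in the other 9 libraries (SD, n = 3; edgeR adjusted p = 0.00148), and gene6605 had 6.33 ± 0.501 CPM and 2 reads in the other 9 (SD, n = 3; edgeR adjusted p = 0.000652). Beside RPS6, the resistance gene gene24004 had 3.32 ± 0.368 CPM in CuiYu and 0 reads elsewhere (SD, n = 3; edgeR adjusted p = 0.000925).

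Other neighbours had unrelated annotations. Beside tryptophan synthase, gene20076 (FLX-like protein 2) had 0.0247 ± 0.0428 CPM in SuCui NO.1, against 11.8 ± 1.34 in Akibae, 10.9 ± 1.87 in Nijisseiki and 9.98 ± 0.525 in CuiYu (SD, n = 3 each; edgeR adjusted p = 2.91e-06). Beside the nucleosidase and gene30675 on a scaffold, gene30674, a beta-amyrin synthase of triterpene formation, had 0.303 ± 0.525 CPM in SuCui NO.1, against 83.9 ± 28.5 in Akibae, 113 ± 48.3 in Nijisseiki and 382 ± 20.6 in CuiYu (SD, n = 3 each; edgeR adjusted p = 6.73e-05). All 12 of its reads in SuCui NO.1 came from 1 library. Beside SAC3, gene35266, a subunit of translation initiation factor 3, had 1.12 ± 0.332 CPM in SuCui NO.1, against 51.6 ± 1.81 in Akibae, 46.0 ± 9.63 in Nijisseiki and 15.9 ± 3.52 in CuiYu (SD, n = 3 each; edgeR adjusted p = 1.86e-06). The direction could also be opposite: beside neomenthol dehydrogenase, off in SuCui NO.1, the resistance gene RGA2 (gene6998) had 6.25 ± 0.758 CPM in SuCui NO.1 and 0 reads elsewhere (SD, n = 3; edgeR adjusted p = 0.00053), while RGA1 (gene6993) had 3.79 ± 0.822 CPM there, against 30.7 ± 5.28 in Akibae, 25.0 ± 9.69 in Nijisseiki and 52.1 ± 5.10 in CuiYu (SD, n = 3 each; edgeR adjusted p = 2.87e-05). Beside VPS54 on its scaffold, 7 neighbours were lower in SuCui NO.1. They included genes annotated as the receptor kinase FERONIA, of which gene34924 had 0 reads in SuCui NO.1, against 6.63 ± 0.788 CPM in Akibae, 5.78 ± 1.01 in Nijisseiki and 4.02 ± 2.23 in CuiYu (SD, n = 3 each; edgeR adjusted p = 6.70e-05). These neighbours were named after their values had been seen.

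A long stretch of such genes lay on chromosome 9 in CuiYu, between the RRP42 gene model at 15209559 and gene35031 ending at 15338398. All 16 genes between them were neither on nor off in at least 1 variety, as were 20287 of all 43732 genes. Some were low everywhere, such as gene35039 at means of 0.1 to 0.68 CPM. Of the genes counted beside the RRP42 model, 7 were higher in CuiYu. These were counted on both sides of the model, so some lie outside the stretch. VPS54 also had 7 called neighbours, described above. Further RRP42 genes lay inside: gene35040 had 121 ± 16.2 CPM in CuiYu, against 15.5 ± 1.75 in Akibae, 12.2 ± 9.03 in Nijisseiki and 4.89 ± 2.40 in SuCui NO.1 (SD, n = 3 each; log2 3.70 ± 0.34 SE, edgeR adjusted p = 5.45e-05), and gene35041 had 53.2 ± 9.31 CPM in CuiYu, against 6.39 ± 0.311 in Akibae, 7.38 ± 6.47 in Nijisseiki and 1.47 ± 0.680 in SuCui NO.1 (SD, n = 3 each; edgeR adjusted p = 0.000157). A pentatricopeptide repeat gene next to the member, gene35046, had 22.9 ± 6.18 CPM in CuiYu, against 0.504 ± 0.149 in Akibae, 1.13 ± 1.15 in Nijisseiki and 0.299 ± 0.197 in SuCui NO.1 (SD, n = 3 each; edgeR adjusted p = 0.000136). With several RRP42 genes side by side, reads split between copies make single levels uncertain.

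**Figure D5:**
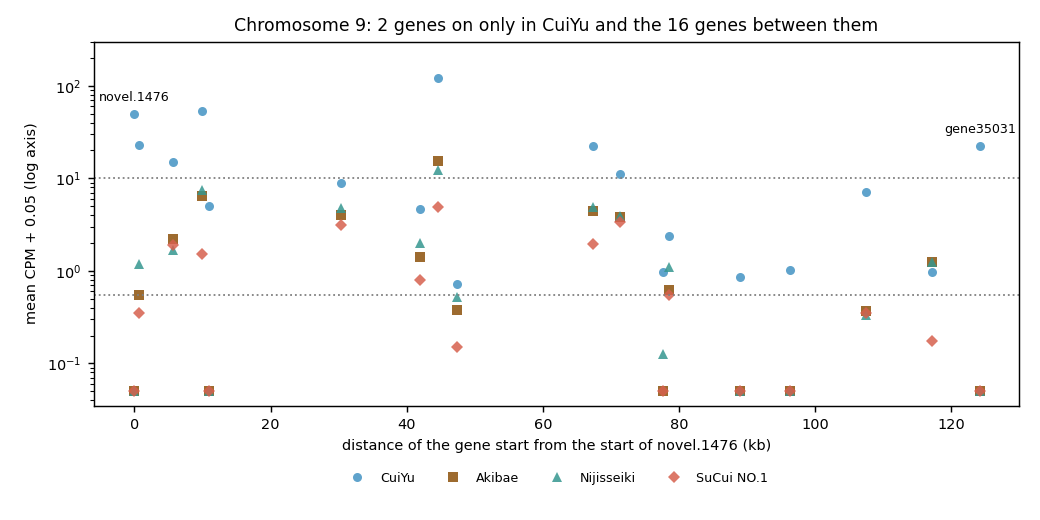
Mean CPM of 3 libraries plus 0.05, on a log axis, of the 18 genes from the RRP42 model to gene35031 by the distance of their starts in kb, with circles for CuiYu, squares for Akibae, triangles for Nijisseiki and diamonds for SuCui NO.1, and the on and off limits dotted. The CuiYu mean is the highest of the 4 at all genes but 1, gene35032.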

How the data were processed

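RNA was extracted from fruit skin with a CTAB protocol and sequenced after library preparation with the NEB Next Ultra kit, per the labels' protocols. The authors deposited 1 table with raw read counts per gene, and beside them FPKM values (reads scaled to gene length and library total), per the file headers. No source used here names the aligner, counter, genome build, strand setting or handling of reads that match several genes. The totals were summed over all 43732 genes, including the 13436 without a Swiss-Prot name.

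CPM was computed as the count divided by the column sum. The members and function lists were chosen with earlier results of these data known, the list patterns after the members were known, and the analyses of neighbours and copies were added after seeing the data. Named genes are all members, together with neighbours and copies singled out after their values were seen.

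Tests on the counts used edgeR 4.0.16 under R 4.3.3 (quasi-likelihood test, TMM scaling, filterByExpr, 1 fit over all 12 libraries with variety as the only term), and p-values were adjusted by Benjamini-Hochberg over the 26307 genes that passed the filter; 17425 did not. The SE of a log2 difference is its size divided by the root of the test's F value. A difference was called at an adjusted p of 0.05. The common biological coefficient of variation was 0.41. The code was tested on simulated data. Alternatives were DESeq2 1.42.0, other scaling, no filter, a fit of only the 2 varieties compared, a replicate block, each library left out in turn, other on and off limits and FPKM.

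Replicate numbers were checked for pairing. The 18 correlations between same-numbered libraries of 2 varieties, as deviations from the variety means, ran from -0.218 to 0.369, with 5 over 0.1. Those of Nijisseiki and SuCui NO.1 were all over 0.1 (0.369, 0.362 and 0.196), so the numbers may pair these varieties; no label says so. The floors given for a count of 0 cover counting error only. The SE of a log2 difference also includes the spread between libraries.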

Additional observations from a re-analysis of the deposited data

How the results depend on the processing

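How many genes met the rule depended on its limits. With on at 5 CPM there were 109 members: on only in Akibae 2, SuCui NO.1 30 and CuiYu 19, and off only in Akibae 4, SuCui NO.1 33 and CuiYu 16. With on at 20 CPM there were 18: on only in Nijisseiki 1, SuCui NO.1 6 and CuiYu 3, and off only in Akibae 0, SuCui NO.1 4 and CuiYu 3. With off at 0 reads there were 15: on only in Nijisseiki 1, SuCui NO.1 3 and CuiYu 2, and off only in SuCui NO.1 8, CuiYu 1, Akibae 0 and Nijisseiki 0. With off at 1 CPM there were 78: on only in Nijisseiki 5, SuCui NO.1 17 and CuiYu 18, and off only in CuiYu 14. On FPKM there were 35, of which 21 were shared with the 47, with on only in Nijisseiki 0 and off only in Akibae 1 and Nijisseiki 2. TMM scaling gave 48, of which 46 were shared. SuCui NO.1 had the most members that were off only under each of these limits. With a gap of 50 kb, 0 members lay in clusters on numbered chromosomes.

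Calls between pairs of varieties changed in number for Akibae over Nijisseiki (0 with a replicate block, 0 with only the 2 varieties fitted, 3 by DESeq2), SuCui NO.1 over Akibae (2 with only the 2 varieties fitted), CuiYu over Akibae (7 with a replicate block) and SuCui NO.1 over Nijisseiki (1 by DESeq2, and 0 with the replicate block that the pairing check allows). Copies of on-only genes that were lower numbered 29 by DESeq2. With the block, 52 neighbours of on-only and 39 of off-only genes were called, and 13 and 17 copies.

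Leaving out 1 library gave 11 to 15 genes on only in SuCui NO.1, 7 to 10 in CuiYu, 3 to 5 in Nijisseiki and 0 to 0 in Akibae. It gave 16 to 20 genes off only in SuCui NO.1, 7 to 9 in CuiYu, 1 to 6 in Nijisseiki and 2 to 5 in Akibae. Members in clusters numbered 6 to 12, with 12 when Nijisseiki replicate 1 was left out. Called pairs numbered 0 to 1 for Akibae over Nijisseiki, 1 to 2 for SuCui NO.1 over Akibae, 5 to 11 for CuiYu over Akibae, 0 to 2 for SuCui NO.1 over Nijisseiki, 7 to 10 for CuiYu over Nijisseiki and 2 to 3 for SuCui NO.1 over CuiYu. Called neighbours numbered 52 to 61 and 38 to 44, lower copies of on-only genes 9 to 23 and higher copies of off-only genes 12 to 19. Of 332 alternative values of counts, 275 lay within 1.5 times of the main value and 57 moved further. Of the 25 called tests of members between pairs of varieties, 10 were lost under at least 1 alternative and 0 reversed. The cause of these changes was not tested.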
